A study of Sus scrofa with 23 samples.

Results

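The comparison described here sets group III (+cDDGS+beef tallow) against group II (+cDDGS+rapeseed oil), 11 of the 23 pigs whose backfat was sequenced. Group II held 6 pigs (3 females and 3 males, pigs 17, 19, 20, 21, 22 and 24) and group III held 5 pigs (2 females and 3 males, pigs 41, 43, 45, 46 and 48), chosen by the diet on their labels. cDDGS was DDGS in those labels. Both diets contained cDDGS, corn dried distillers grains with solubles, which is the residue of maize left after its starch has been fermented to alcohol, and according to the study's methods they supplied the same energy and nitrogen, so that the fat source was the intended difference. The other groups, group I (-cDDGS+rapeseed oil, 7 pigs) and group IV (+cDDGS+coconut oil, 5 pigs), appear only as values beside those of groups II and III. All animals were healthy crossbred fatteners out of Polish Landrace × White Large Polish sows by a Duroc × Pietrain boar, and the males were barrows. Each sample was 1 pig, the ages of the pigs are not given in the sources used here, and the methods state that the RNA was partly degraded. The study asked how backfat transcripts differ between diets of unlike cDDGS content and fat source, and beef tallow is a hard fat used in feeds against soft backfat.

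Rapeseed oil is rich in unsaturated fatty acids and beef tallow in saturated and monounsaturated ones. Subcutaneous fat of the pig stores fatty acids taken up from the diet and also makes its own from glucose, through ACLY, ACACA and FASN, with SCD introducing a double bond. Polyunsaturated fatty acids are known to lower the transcription of these synthetic enzymes and to act as ligands of the PPAR receptors, which drive genes of fatty acid oxidation, and fat tissue also holds macrophages, fibroblasts and vessels whose genes respond to diet.

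Gene counts summed to between 2437172 and 5123759 per pig in group II and to between 3768842 and 7979426 in group III (exact permutation p = 0.0433, Benjamini-Hochberg adjusted p = 0.182 over 21 measures of depth and composition), so that 1 CPM, the read count scaled to library size, stood for between 2.31 and 6.94 reads. Reads outside annotated genes made up between 54.5 and 69.2% of the uniquely mapped reads in group II and between 51.1 and 60.8% in group III (exact permutation p = 0.104, Benjamini-Hochberg adjusted p = 0.273), and pigs 19 and 21 of group II had the largest shares, 68.5 and 69.2%. The 5 adipocyte markers with an identifier were detected in all 11 pigs, with a summed level between 1954 and 3454 CPM with a median of 2429 CPM in group II and of 2776, 2474, 2287, 2354 and 2698 CPM in group III, and PLIN1, the coat protein of the fat droplet, was at 1146 ± 251 CPM in group II and 1126 ± 111 CPM in group III (n = 6 and 5). ADIPOQ, LEP, FABP4 and LPL were not matched to an identifier and were not analysed here. The gene with the most reads, ENSSSCG00000018063, held 20.8 to 36.0% of all gene counts. Here and below, ± is the SD over pigs for CPM values and the SE for log2 fold changes. Markers of other tissues varied between pigs of the same group. The 6 skeletal muscle markers summed to 1834 CPM in pig 24 of group II and 3995 CPM in pig 46 of group III, against 23.9 to 722 CPM in the other 9 pigs. The liver list, led by ALB (albumin), summed to 5780 CPM in pig 17 of group II and to between 6.93 and 1183 CPM in the other 10 pigs. Their part in the results was not tested, and values without such a pig are given for some lists. POU2AF1 (B cells), CSF3R (neutrophils), MYH11 (smooth muscle) and DSG1 (skin) had 0 counts in all 11 pigs.

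The clearest separations between the fats were in a few single genes. The urokinase gene PLAU, CTCFL and the myeloid receptor gene CD200R1 were 3.04, 2.75 and 3.67 times lower with beef tallow, and USP53 and PPTC7 were 2.05 and 1.90 times higher, each without overlap between the 6 and 5 pigs. Genes of fatty acid synthesis showed no such separation, and none of the genes named here passed the main test. By the quasi-likelihood test of edgeR, 0 of 10410 genes (0%) passed an adjusted p-value under 0.05 with a fold change above 1.3, and the smallest adjusted p-value was 0.0583, shared by PLAU, CTCFL and USP53. Before adjustment, 291 genes (2.8%) were higher in group III with a p-value under 0.05 and 356 (3.42%) were lower, 647 in all where 520 would be 5% of the genes tested. In 26 genes (0.25%) every pig of group III lay above every pig of group II, and in 35 (0.336%) every pig of group III lay below. Of the 462 ways to divide the 11 pigs into 6 and 5, 1 gives such a separation in each direction for any gene. That is the smallest exact permutation p, 0.00433 over both directions, so among 10410 genes a lack of overlap alone is a weak mark of a difference. Of the 2 other tools, the limma-voom test with sample weights also called 0 genes, with 931 under an unadjusted p of 0.05. DESeq2's Wald test, with the same limits, called 29 of 9810 genes (0.296%), 16 with higher and 13 with lower levels after beef tallow, and 21 of the 29 have a symbol. The 29, termed DEGs (differentially expressed genes) by DESeq2, had edgeR adjusted p-values between 0.0583 and 0.521, and 17 of them did not overlap between the groups. With other filters on low counts edgeR called 4 genes (with at least 10 counts in every pig these were CTCFL, PLAU, PPTC7 and USP53), and with RNA quality as covariate it called CD200R1. DESeq2 gave 813 genes an unadjusted p under 0.05, where 869 would be 5% of the genes to which it gave a p-value. Those include low-count genes that the edgeR filter removed. Among the 10410 genes that edgeR tested, DESeq2 gave an unadjusted p under 0.05 to 312 higher and 365 lower genes, against the same 520. In the edgeR fit without pigs 19 and 21, the smallest adjusted p-value of any gene was 0.310, and an unadjusted p under 0.05 was found for 373 genes in the higher and 275 in the lower direction, so that the direction with more genes was the opposite of that with all 11 pigs.

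**Figure D1:**
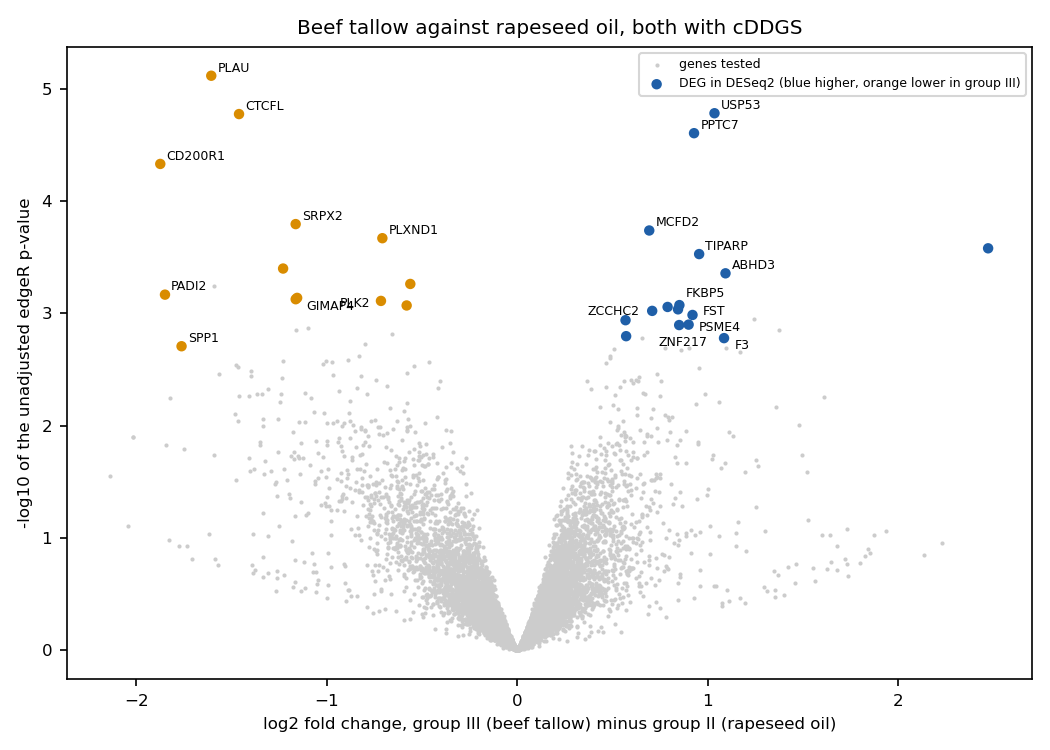
Each point is 1 of the 10410 genes tested, with the log2 fold change of group III against group II on the x axis and −log10 of the unadjusted edgeR p-value on the y axis, and the 29 DESeq2 DEGs are blue where higher in group III and orange where lower. PLAU, CTCFL and USP53 stand at the top, and the points spread about evenly to both sides of 0 (median of all genes 0.00).

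PLAU, the urokinase that turns plasminogen into plasmin, had the smallest p-value of all genes. It was between 8.23 and 23.7 CPM with a median of 17.5 CPM in group II, and at 5.55, 5.86, 4.26, 6.48 and 5.86 CPM in pigs 41, 43, 45, 46 and 48 of group III. All 5 pigs fed beef tallow lay below all 6 pigs fed rapeseed oil, and the level was 3.04 times lower in group III (log2 fold change -1.61 ± 0.24, edgeR adjusted p = 0.0583, DESeq2 adjusted p = 1.59e-06, exact permutation p = 0.00433, the smallest that 6 against 5 pigs can give). Every gene without overlap between the groups has this exact p-value, and PLAU was picked by its p-value, so the exact test is no further support. SRPX2, a secreted ligand of the urokinase receptor, was between 8.99 and 19.6 CPM with a median of 16.3 CPM in group II and at 7.59, 7.87, 6.81, 7.64 and 4.22 CPM in group III, again without overlap (log2 fold change -1.16 ± 0.23, edgeR adjusted p = 0.272, DESeq2 adjusted p = 0.00328). The gene of the urokinase receptor itself, PLAUR, was not matched to an identifier.

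CTCFL, a germline paralogue of the chromatin insulator CTCF, was between 12.996 and 33.4 CPM with a median of 25.3 CPM in group II and at 8.76, 8.64, 11.1, 7.93 and 7.26 CPM in group III, again without overlap (log2 fold change -1.46 ± 0.23, edgeR adjusted p = 0.0583, DESeq2 adjusted p = 6.49e-06). Group I spread more widely for this gene, from 4.51 to 35.3 CPM. CD200R1, an inhibitory receptor of myeloid cells, was between 3.57 and 10.9 CPM with a median of 6.51 CPM in group II and at 3.21, 1.39, 1.70, 1.59 and 1.64 CPM in group III, and pig 41 with 3.21 CPM came closest to the lowest pig of group II (log2 fold change -1.87 ± 0.33, edgeR adjusted p = 0.0972, DESeq2 adjusted p = 7.70e-04). In whole backfat, fewer cells of a type and less RNA per cell cannot be told apart. The levels of CD200R1 stood on 13 to 41 reads per pig in group II and 7 to 11 in group III. PLXND1, a semaphorin receptor of endothelial and fat cells, had more reads (197 to 680 per pig) and showed a smaller difference, with 102 ± 13.6 CPM in group II and 62.1 ± 11.7 CPM in group III and no overlap (log2 fold change -0.71 ± 0.14, edgeR adjusted p = 0.279, DESeq2 adjusted p = 0.00328).

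GIMAP4, a GTPase of lymphocytes, averaged 35.03 ± 15.8 CPM in group II and 15.6 ± 3.85 CPM in group III without overlap, and PADI2, which turns arginine of proteins into citrulline, averaged 8.18 ± 4.50 CPM in group II and 2.14 ± 1.19 CPM in group III. Both were DEGs by DESeq2 (adjusted p = 0.0263 and 0.0218) and not by edgeR, where each had an adjusted p of 0.430. Their log2 fold changes went from -1.16 to -0.78 and from -1.85 to -1.35 when pigs 19 and 21 were left out. SPP1 (osteopontin, secreted by activated macrophages) was a DEG by DESeq2 (adjusted p = 0.0304, edgeR adjusted p = 0.521) in which 2 pigs stood apart. It was at 78.6 and 71.7 CPM in pigs 19 and 21 and at 15.3 to 25.1 CPM in the other 4 pigs of group II, against 11.97, 11.6, 5.53, 15.4 and 10.5 CPM in group III, and its log2 fold change went from -1.76 ± 0.47 to -0.76 when those 2 pigs were left out. PLK2, a stress-induced kinase, was at 80.9 ± 15.1 CPM in group II and 49.3 ± 10.2 CPM in group III without overlap (DESeq2 adjusted p = 0.0424). CD84, a receptor of leukocytes (log2 fold change -1.59 ± 0.36), CFP, properdin, which stabilises the alternative complement convertase (-1.16 ± 0.29), and CYP26B1, which breaks down retinoic acid (-1.100 ± 0.28), were among the 12 lower genes with a symbol and the smallest p-values but were not called by edgeR (adjusted p = 0.427, 0.474 and 0.474) or DESeq2, which gave CD84 no adjusted p-value. CD84 and CFP did not overlap between the groups, and for CYP26B1 3 pigs of group III were above the lowest pig of group II.

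Among the genes higher in group III, USP53, a member of the deubiquitinase family found at tight junctions, was between 86.6 and 154 CPM with a median of 102 CPM in group II and at 248, 174, 246, 185 and 252 CPM in group III. No values overlapped, and the level was 2.05 times higher with beef tallow (log2 fold change 1.04 ± 0.16, edgeR adjusted p = 0.0583, DESeq2 adjusted p = 6.49e-06, exact permutation p = 0.00433, as in every gene without overlap). PPTC7, a mitochondrial phosphatase that limits mitophagy, was between 28.8 and 48.7 CPM with a median of 40.8 CPM in group II and at 71.8, 64.6, 91.3, 65.6 and 84.8 CPM in group III, also without overlap (log2 fold change 0.93 ± 0.15, edgeR adjusted p = 0.0647, DESeq2 adjusted p = 3.03e-05). MCFD2, part of the receptor that carries coagulation factors out of the endoplasmic reticulum, averaged 66.1 ± 10.04 CPM in group II and 106 ± 16.3 CPM in group III and did not overlap either (DESeq2 adjusted p = 0.00349, edgeR adjusted p = 0.272).

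TIPARP, an ADP-ribosyltransferase induced by and acting back on the aryl hydrocarbon receptor, was between 44.0 and 104 CPM with a median of 57.5 CPM in group II and at 130.2, 104, 155, 112 and 114 CPM in group III. The lowest pig of group III (pig 43) lay just above the highest of group II (pig 24), both at 104 CPM when rounded (log2 fold change 0.96 ± 0.20, DESeq2 adjusted p = 0.00708, edgeR adjusted p = 0.309). FKBP5, a co-chaperone of the glucocorticoid receptor that glucocorticoids induce, was between 164 and 369.7 CPM with a median of 305 CPM in group II and at 412, 434, 663, 479 and 584 CPM in group III, without overlap (log2 fold change 0.85 ± 0.20, DESeq2 adjusted p = 0.0263, edgeR adjusted p = 0.430). ABHD3, a phospholipase that cleaves phosphatidylcholines with medium-chain fatty acids, was between 4.62 and 9.10 CPM with a median of 6.44 CPM in group II and at 18.1, 8.79, 18.1, 9.80 and 15.5 CPM in group III, where 3 pigs stood far above group II and 1 lay within its range (log2 fold change 1.09 ± 0.24, DESeq2 adjusted p = 0.0272, edgeR adjusted p = 0.382).

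F3, tissue factor, which starts the coagulation cascade, was between 41.0 and 145 CPM with a median of 78.2 CPM in group II and at 243, 142, 249.9, 132 and 171 CPM in group III, with 2 of the 5 pigs within the range of group II (log2 fold change 1.09 ± 0.28, DESeq2 adjusted p = 0.0492, edgeR adjusted p = 0.496). FST, follistatin, the binding protein that neutralises activin and myostatin, averaged 12.1 ± 1.92 CPM in group II and 22.7 ± 7.70 CPM in group III (DESeq2 adjusted p = 0.0492), and 1 pig of group III, pig 48 with 11.95 CPM, was within the range of group II. PSME4, an activator of the proteasome, ZNF217, a zinc finger repressor, and ZCCHC2, a zinc finger protein of little known function, were DEGs by DESeq2 with log2 fold changes of 0.90 ± 0.22, 0.85 ± 0.21 and 0.71 ± 0.17 and adjusted p-values of 0.0483, 0.0476 and 0.0419. USP43, another deubiquitinase, did not overlap between the groups (from 4.38 to 11.1 CPM in group III against 1.38 to 3.57 CPM in group II) but was not called by either test (edgeR adjusted p = 0.460, DESeq2 adjusted p = 0.0883). Of the 8 DESeq2 DEGs without a symbol, ENSSSCG00000004754 had the largest fold change of the 29, with 2.53 ± 2.64 CPM in group II and 12.6 ± 5.90 CPM in group III (log2 fold change 2.47 ± 0.51, DESeq2 adjusted p = 0.00379), and ENSSSCG00000012229 had the largest fold change of the 3 lower ones (-1.23 ± 0.27).

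**Figure D2:**
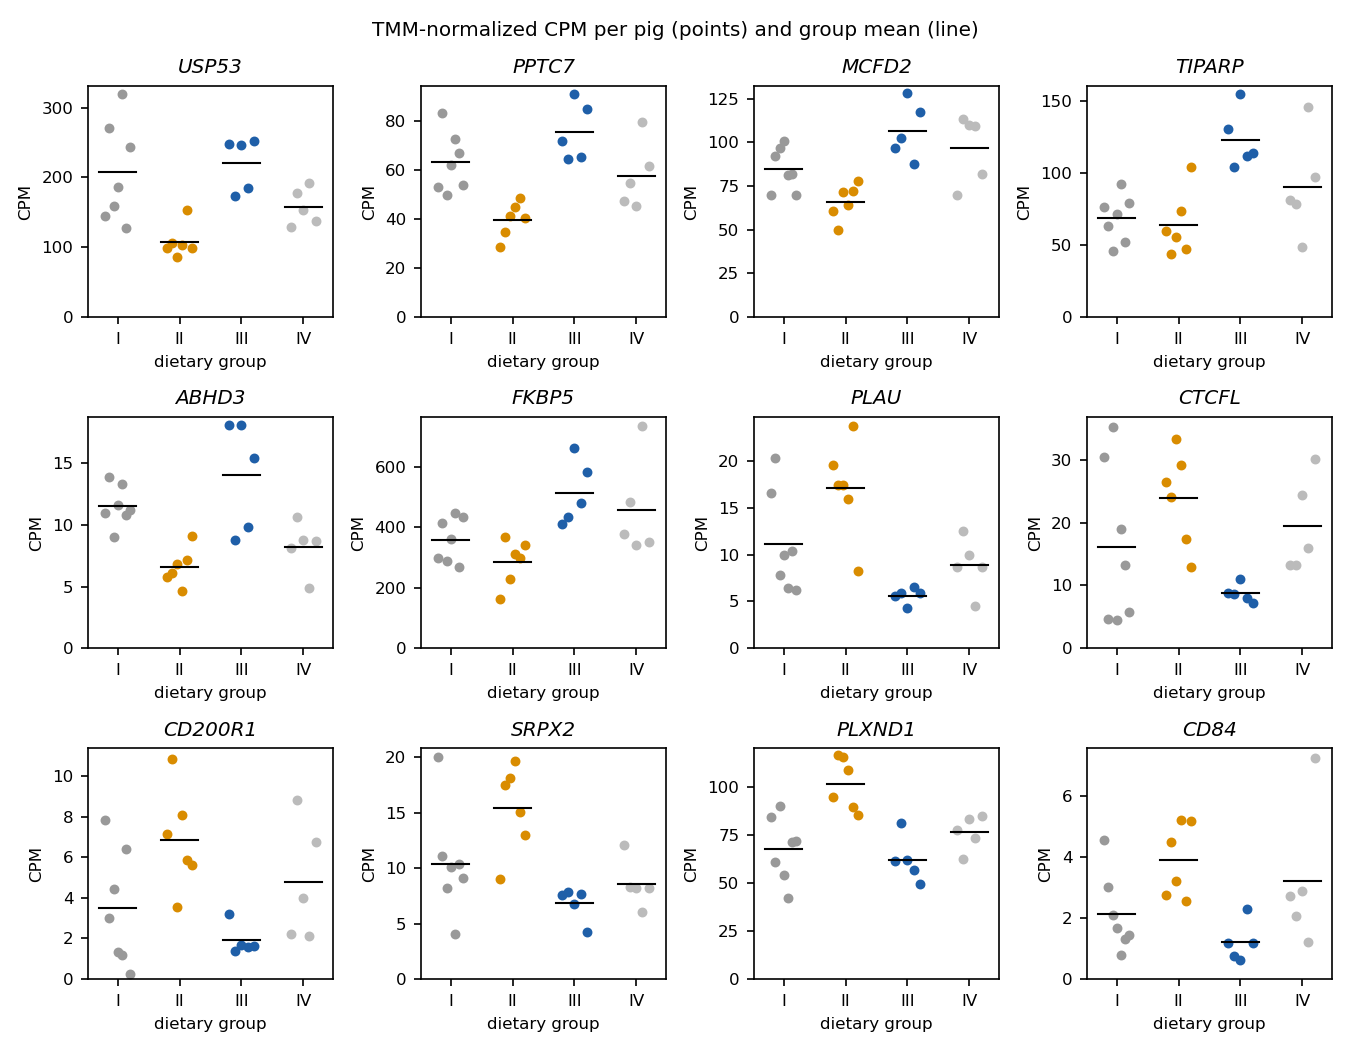
TMM-normalized CPM (y axis, from 0) of 12 genes in every pig of the 4 dietary groups (x axis), with a line at each group mean. The first 6 panels are the genes with the smallest p-values among those higher in group III and the last 6 among those lower, and in all panels except ABHD3 the blue points (group III) and the orange points (group II) do not overlap.

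The diets without cDDGS (group I) and with coconut oil (group IV) give a further scale for these levels. For USP53 the means were 207 CPM without cDDGS, 108 with rapeseed oil, 221 with beef tallow and 158 with coconut oil, with group II lowest and group III close to the diet without cDDGS. F3 ran the same way (205 CPM without cDDGS, 88.5 with rapeseed oil, 187 with beef tallow and 156 with coconut oil), as did IL1RAP, the co-receptor of interleukin 1 (76.3 CPM without cDDGS, 43.7 with rapeseed oil, 81.1 with beef tallow and 69.3 with coconut oil). USP53 was picked by its p-value between groups II and III, and the study reported F3 and IL1RAP as changed with cDDGS. Group II was part of those comparisons, so its low place in USP53, F3 and IL1RAP follows partly from how they were chosen. For PLAU, group II was above and group III below group I, with 11.1 CPM without cDDGS, 17.1 with rapeseed oil, 5.60 with beef tallow and 8.86 with coconut oil. TIPARP and FST were instead highest in group III while groups I and II lay close together, at 68.5 CPM without cDDGS, 63.9 with rapeseed oil, 123 with beef tallow and 90.2 with coconut oil for TIPARP and 9.40 CPM without cDDGS, 12.1 with rapeseed oil, 22.7 with beef tallow and 17.7 with coconut oil for FST. CD200R1 averaged 3.49 CPM without cDDGS, 6.86 with rapeseed oil, 1.91 with beef tallow and 4.79 with coconut oil. Each log2 fold change against group I came from its own fit of 2 groups that share pigs, and for USP53 it was -0.94 ± 0.21 in group II and 0.09 ± 0.21 in group III, with adjusted p-values of 0.156 and 0.951.

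Genes of fatty acid synthesis were not distinguishable between the fats, and 1 pig of group III, pig 48, stood far above the other 4. Of the 13 tested identifiers of the de novo lipogenesis list, 0 had an unadjusted p under 0.05 in either direction, where 2.8% of all genes were higher and 3.42% lower, and their median log2 fold change was 0.10 against 0.00 for all genes. SCD, the stearoyl-CoA desaturase, was between 2484 and 11875 CPM with a median of 8887 CPM in group II and at 8321, 2755, 3790.1, 10328 and 26558 CPM in group III. The highest and nearly the lowest values of all 11 pigs were both in group III, and the log2 fold change was 0.37 ± 0.51 with an adjusted p of 0.960. ACLY, which supplies cytosolic acetyl-CoA, was between 174 and 347 CPM with a median of 229.6 CPM in group II and at 212, 151, 103, 195 and 1398 CPM in group III. Only pig 48 stood above group II for this gene, and the log2 fold change of 0.78 ± 0.55 became -0.54 without it. ME1, the malic enzyme that makes NADPH, had the same shape, with 290.4, 299, 583, 572 and 2327 CPM in group III and a mean of 524 CPM in group II. With pig 48 so far from the rest, the values of these genes depended on 1 animal. FASN, fatty acid synthase, is split over a pair of identifiers, both with a log2 fold change of 0.10 (± 0.36 for ENSSSCG00000029944), which was negative with limma-voom, with sex or reads outside genes as covariate, and without pigs 19 and 21. ACACA was at 619 ± 135 CPM in group II and 654 ± 366 CPM in group III (log2 fold change 0.08 ± 0.27). Without pig 48 the median of the list was -0.35, and with the share of reads outside genes as covariate it was -0.44.

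Summed over the list, lipogenic transcripts were at 12970.4, 6988, 9516, 16452 and 44057 CPM in pigs 41, 43, 45, 46 and 48 and between 5728 and 18943 CPM with a median of 16083 CPM in group II. Group III thus held both 1 pig far above and 3 pigs below that median. Cholesterol synthesis and uptake (16 tested, 0 with a p under 0.05 in either direction, median 0.06), lipolysis (7 tested, 0, median 0.17) and triglyceride storage (9 tested, median -0.02) gave 1 gene under 0.05. This was FITM2, which partitions triglyceride into lipid droplets, between 28.6 and 44.5 CPM with a median of 34.8 CPM in group II and at 44.7, 60.8, 64.7, 42.5 and 41.9 CPM in group III (log2 fold change 0.51 ± 0.16, edgeR adjusted p = 0.654). Of the 8 tested genes of fatty acid uptake and binding, 2 had an unadjusted p under 0.05 and both were higher, as were 2.8% of all genes. They were ACSL4, which prefers arachidonic acid, with 113, 101, 189, 121 and 90.2 CPM in group III and between 60.8 and 98.2 CPM with a median of 81.8 CPM in group II (log2 fold change 0.64 ± 0.18), and ACSL3, an acyl-CoA synthetase of nascent lipid droplets, with 18.7, 19.7, 30.2, 23.3 and 35.6 CPM in group III and between 12.98 and 21.7 CPM with a median of 15.0 CPM in group II (log2 fold change 0.66 ± 0.20). Their edgeR adjusted p-values were 0.564 and 0.597.

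**Figure D3:**
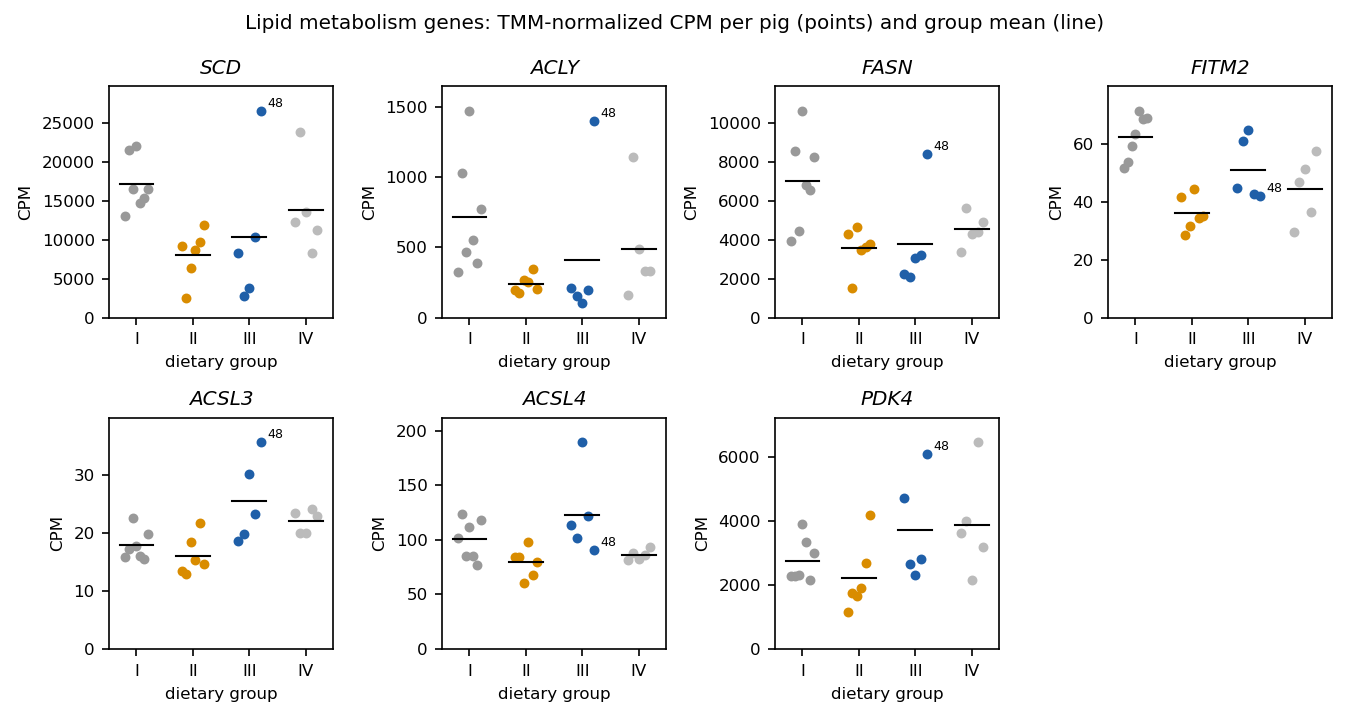
TMM-normalized CPM (y axis, from 0) of 7 genes of lipid metabolism in every pig of the 4 dietary groups (x axis), with a line at each group mean and pig 48 of group III labelled. For SCD, ACLY and FASN (ENSSSCG00000029944) this pig lies far above the rest of group III, while for ACSL3, ACSL4 and FITM2 every pig of group III lies above the median of group II.

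Of 17 tested PPAR targets and oxidation genes, 4 were higher with an unadjusted p under 0.05 and 1 was lower, with a median log2 fold change of 0.19 (2.8% of all genes were higher and 3.42% lower). SLC25A20, the carnitine carrier of the inner mitochondrial membrane, CPT2, which rebuilds acyl-CoA inside, and PDK4, the kinase that shuts down pyruvate oxidation, had log2 fold changes of 0.55 ± 0.22, 0.36 ± 0.16 and 0.75 ± 0.33. PDK4 spread from 2314 to 6100.2 CPM in group III and from 1163 to 4188 CPM in group II. UCP2, an uncoupling protein that is also found in macrophages, was the lower one (-0.72 ± 0.32). The adjusted p-values of these 4 genes were between 0.760 and 0.786. The list did not hold its position in 2 alternatives, since the median was -0.08 with reads outside genes as covariate and 0.01 without pigs 19 and 21.

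The 13 protein genes of the mitochondrial genome, subunits of the respiratory chain and ATP synthase, all had positive log2 fold changes, between 0.32 and 0.63, and are transcribed from 1 common control region, so they are not separate observations. Their summed level was 110891, 85601, 107789, 116853 and 152389 CPM in group III and between 47515 and 112245 CPM with a median of 85717 CPM in group II (exact permutation p = 0.0519, Benjamini-Hochberg adjusted p = 0.182). The lowest sums were those of pigs 21 and 19 of group II, and the highest was that of pig 48. Of all genes, 2.8% were higher with an unadjusted p under 0.05, and 5 of the 13 were, namely ND1, ND5 and ND6 of complex I (0.52 ± 0.21, 0.61 ± 0.23 and 0.63 ± 0.24), COX3 of complex IV (0.51 ± 0.24) and CYTB of complex III (0.50 ± 0.22), with adjusted p-values between 0.728 and 0.793. The median of 0.48 was 0.17 with reads outside genes as covariate and 0.28 without pigs 19 and 21, and in each of these fits 0 of the 13 had a p under 0.05. Of 37 nuclear genes of the respiratory chain, 33 had a positive log2 fold change, 5 of them (against the same 2.8% of all genes) with an unadjusted p under 0.05 (NDUFS5, NDUFS4, NDUFB9, COX7A2 and UQCRFS1, from 0.39 to 0.54), and the median was 0.23, against -0.05 with the covariate and 0.08 without the 2 pigs.

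Macrophage markers were lower in group III in most members. Of 11 tested, 8 had an unadjusted p under 0.05 and a lower level, where 3.42% of all genes did, and the median log2 fold change was -0.77. MSR1, the scavenger receptor of macrophages, was between 6.62 and 34.4 CPM with a median of 14.002 CPM in group II and at 10.8, 8.02, 3.83, 6.92 and 5.62 CPM in group III (log2 fold change -1.40 ± 0.40, edgeR adjusted p = 0.564). TYROBP and FCER1G, adaptors of activating receptors, C1QC, a chain of complement C1q, VSIG4, a complement receptor of resident macrophages, CD14, a co-receptor for lipopolysaccharide, CD68, a lysosomal glycoprotein, and LYVE1, a hyaluronan receptor, had log2 fold changes from -0.93 to -0.63. Their adjusted p-values were 0.720 or higher. The summed level of the 13 markers with an identifier was 165, 289.9, 168, 224 and 108 CPM in group III and between 227 and 485 CPM with a median of 293 CPM in group II (exact permutation p = 0.0303, Benjamini-Hochberg adjusted p = 0.182), and the highest pig of group II was pig 19 with 485 CPM. In group I the sum ran from 61.7 to 232 CPM and in group IV from 123 to 287 CPM. Without pigs 19 and 21 the median was -0.43 and 1 of the 11 markers had an unadjusted p under 0.05.

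Of 18 tested complement and coagulation genes, 5 were lower with an unadjusted p under 0.05 (C1QC, PLAU, CFP, VSIG4 and F13A1) and 1 was higher (F3), where 3.42% of all genes were lower and 2.8% higher. The median was -0.61, and it was -0.36 with reads outside genes as covariate and -0.37 without pigs 19 and 21. C1QC and VSIG4 also count among the macrophage markers above, so these lists share members and are not separate observations. PLAU, CFP and F3 are described above, and F13A1, the A subunit of coagulation factor XIII that macrophages also make, averaged 27.7 ± 11.6 CPM in group II and 15.2 ± 8.01 CPM in group III (log2 fold change -0.84 ± 0.33). The median was -0.17 without pig 17, which also had the highest liver sum, and whether liver transcripts played a part was not tested. Among 19 cytokine and NF-κB genes, CXCL2 and CCL2, chemokines for neutrophils and monocytes, were lower with log2 fold changes of -0.83 ± 0.23 and -1.35 ± 0.49, and IL1RAP was higher with 0.90 ± 0.24, at adjusted p-values of 0.550, 0.720 and 0.521. CCL2 rested on few reads, with values of 2.63, 0.463, 0.638, 4.61 and 0.703 CPM in group III and between 3.03 and 6.36 CPM with a median of 4.84 CPM in group II. Of 16 interferon and antigen presentation genes, SLA-1, a swine class I antigen, was higher (1.097 ± 0.29) and IRF1, a transcription factor of the interferon response, lower (-0.45 ± 0.19), each with an unadjusted p under 0.05 as in 2.8 and 3.42% of all genes. SLA-1 has near-identical class I relatives among which reads may be divided, so its value is uncertain. Mast cell markers summed to 55.5, 147, 124, 150.4 and 87.2 CPM in group III and between 149 and 216 CPM with a median of 155 CPM in group II (exact permutation p = 0.0130, Benjamini-Hochberg adjusted p = 0.182), while the T and NK cell sum gave an exact permutation p of 0.939. Of the 3 mast cell markers tested singly, 1 had a positive and 2 had a negative log2 fold change. No B cell or neutrophil marker passed the filter on low counts, and their sums were at most 2.38 and 1.73 CPM (exact permutation p = 1 and 0.693).

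Of 29 tested collagen and matrix genes, 6 were lower with an unadjusted p under 0.05 and 0 were higher (3.42 and 2.8% of all genes), with a median of -0.18. The 6 were FN1, fibronectin (-1.002 ± 0.41), LOXL1, a cross-linking oxidase (-0.99 ± 0.39), POSTN, periostin (-0.82 ± 0.28), COL1A2 and COL3A1, fibrillar collagen chains (-0.82 ± 0.34 and -0.55 ± 0.22), and FBN1, fibrillin, which is also the precursor of asprosin (-0.70 ± 0.24), and the adjusted p-values were between 0.7099 and 0.760. COL3A1 was between 6755 and 11614 CPM with a median of 9206 CPM in group II and at 7288, 8054, 3726, 6254 and 6439 CPM in group III. The summed list was at 20035, 27262, 15352, 19250.3 and 16572 CPM in group III, where pig 43 stood alone above the median of group II (exact permutation p = 0.0476, Benjamini-Hochberg adjusted p = 0.182). Without pigs 19 and 21, which had the highest sums of group II, the median was -0.04 with 1 gene higher and 1 lower under 0.05, and with reads outside genes as covariate it was -0.02 with 2 higher and 0 lower.

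Of the cell division genes, all 10 tested had a negative log2 fold change, 7 with an unadjusted p under 0.05 (3.42% of all genes were lower), and the median was -1.17. TOP2A, the topoisomerase of dividing cells, was at 75.5 CPM in pig 19 and at 12.7 to 23.2 CPM in the other 5 pigs of group II, against 9.63, 12.7, 6.60, 6.92 and 23.4 CPM in group III (log2 fold change -1.26 ± 0.47, edgeR adjusted p = 0.728). BUB1B, a kinase of the spindle checkpoint, was between 1.15 and 16.2 CPM with a median of 3.50 CPM in group II, again highest in pig 19, and at 1.46, 2.01, 0.213, 0.288 and 2.58 CPM in group III (-2.02 ± 0.71). TPX2, KIF11, MCM2, CENPF and MCM3 completed the 7, with log2 fold changes from -1.40 to -1.06. The summed list was at 410.4 CPM in pig 19, at 86.1 to 191 CPM in the rest of group II and at 82.6, 164, 51.3, 66.7 and 109 CPM in group III (exact permutation p = 0.104, Benjamini-Hochberg adjusted p = 0.273). Without pigs 19 and 21 the median was -0.54 and 1 of the 10 had a p under 0.05, and it was -0.58 with 0 of 10 when reads outside genes were a covariate.

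**Figure D4:**
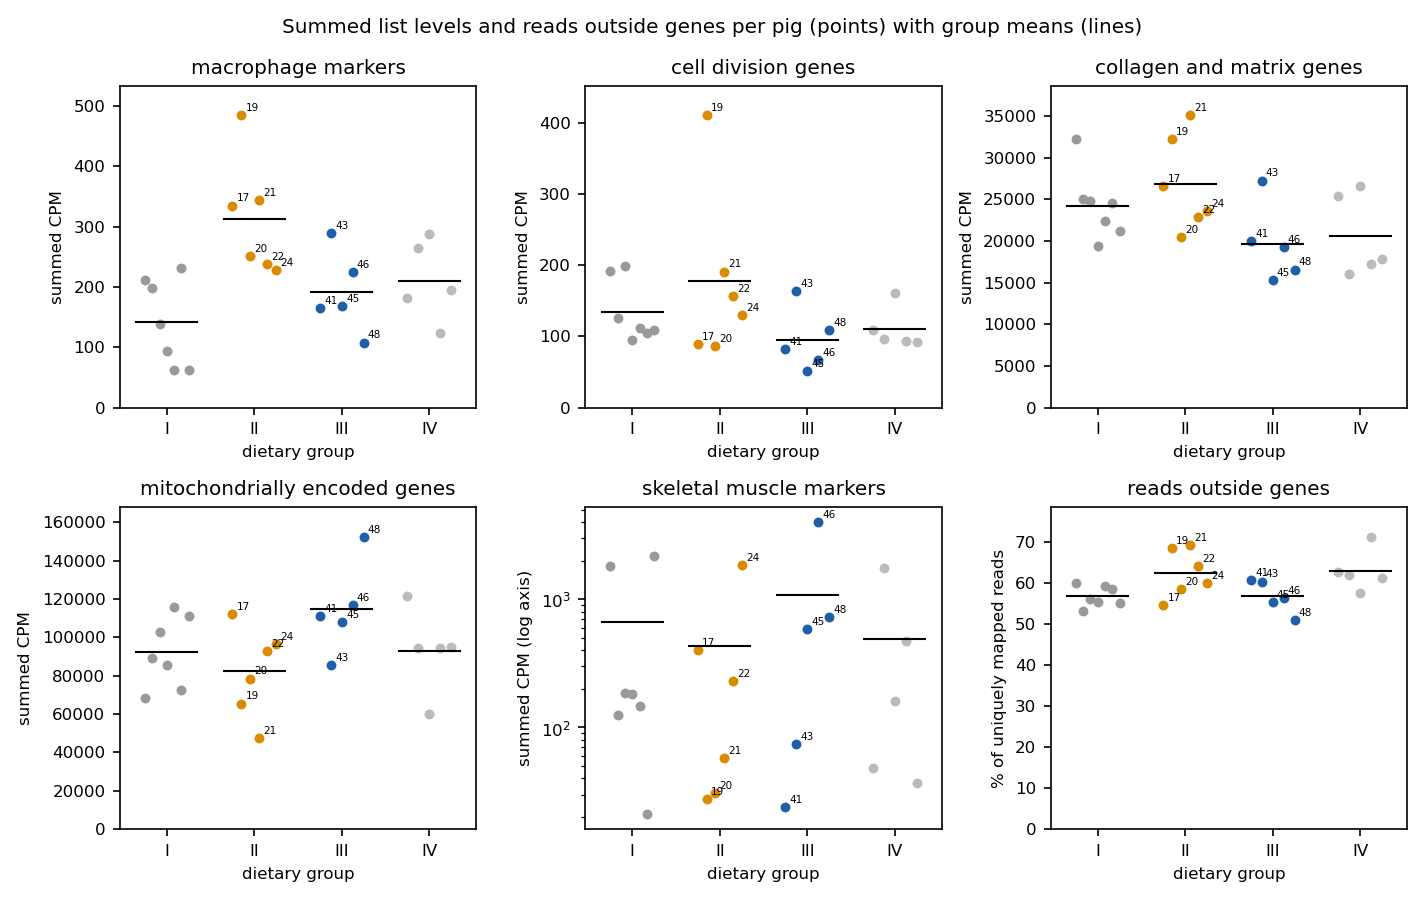
Summed CPM of 5 gene lists and the percentage of uniquely mapped reads outside genes, per pig in the 4 dietary groups (x axis), with pig numbers for groups II and III and a line at each group mean. The muscle panel has a log axis and the others start at 0. Within group II, pigs 19 and 21 lie highest for cell division, macrophage and matrix genes and for reads outside genes, and lowest for mitochondrially encoded genes.

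Of the genes tied to the aryl hydrocarbon receptor, a sensor of plant, microbial and xenobiotic compounds, 6 were tested and all had a positive log2 fold change, with a median of 0.55. Besides TIPARP, AHR itself had an unadjusted p under 0.05, between 19.1 and 40.8 CPM with a median of 24.7 CPM in group II and 31.5, 35.9, 51.9, 37.8 and 42.4 CPM in group III (log2 fold change 0.50 ± 0.21, edgeR adjusted p = 0.760). CYP1A1, its best known target, was low and variable, with 9.05, 7.71, 6.17, 3.60 and 0.937 CPM in group III and between 0.289 and 7.14 CPM with a median of 1.63 CPM in group II (1.16 ± 0.60), while CYP2B6, which the list also holds though other receptors are known to control it, had 0.60 ± 0.43. The median of this list was 0.56 without pigs 19 and 21 and 0.63 with the covariate. In each of these fits 1 of the 6 had an unadjusted p under 0.05, against 2 in the main fit. Among adipokines and adipocyte regulators, 13 were tested, and NAMPT, visfatin, an enzyme of NAD synthesis, was higher (0.54 ± 0.16) while IRS1, a docking protein of the insulin receptor, and C1QTNF6, a secreted relative of adiponectin, were lower (-0.43 ± 0.19 and -0.74 ± 0.29), at adjusted p-values of 0.597, 0.783 and 0.756. Of 21 chaperone and endoplasmic reticulum stress genes, 2 were higher under 0.05 (HSPH1 and HSPA13, chaperones of the heat shock family, 0.53 ± 0.24 and 0.35 ± 0.15). The 10 immediate early genes and the 9 clock genes had 0 under 0.05, with medians of -0.10 and 0.03. Endothelial and pericyte markers had 0 of 8 each, with medians of 0.03 and -0.18, and the 6 muscle markers had a median of 1.46 that turned to -0.13 without pig 46 and to -0.38 with the covariate. The 8 liver genes had a median of -0.69, with 0 of 8 under 0.05. It was 1.03 without pig 17, and -1.97 with the covariate for reads outside genes, where 7 of the 8 were lower with an unadjusted p under 0.05. Of the 6 fibroblast and preadipocyte markers, 2 were lower under 0.05, both of them the collagen chains named above, and of the 3 skin markers 1 was higher, LAD1 (0.73 ± 0.25). The 3 mast cell, 2 T and NK cell, 1 nerve and 2 erythroid markers tested had 0 under 0.05. These counts stand beside 2.8% of all genes higher and 3.42% lower.

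**Figure D5:**
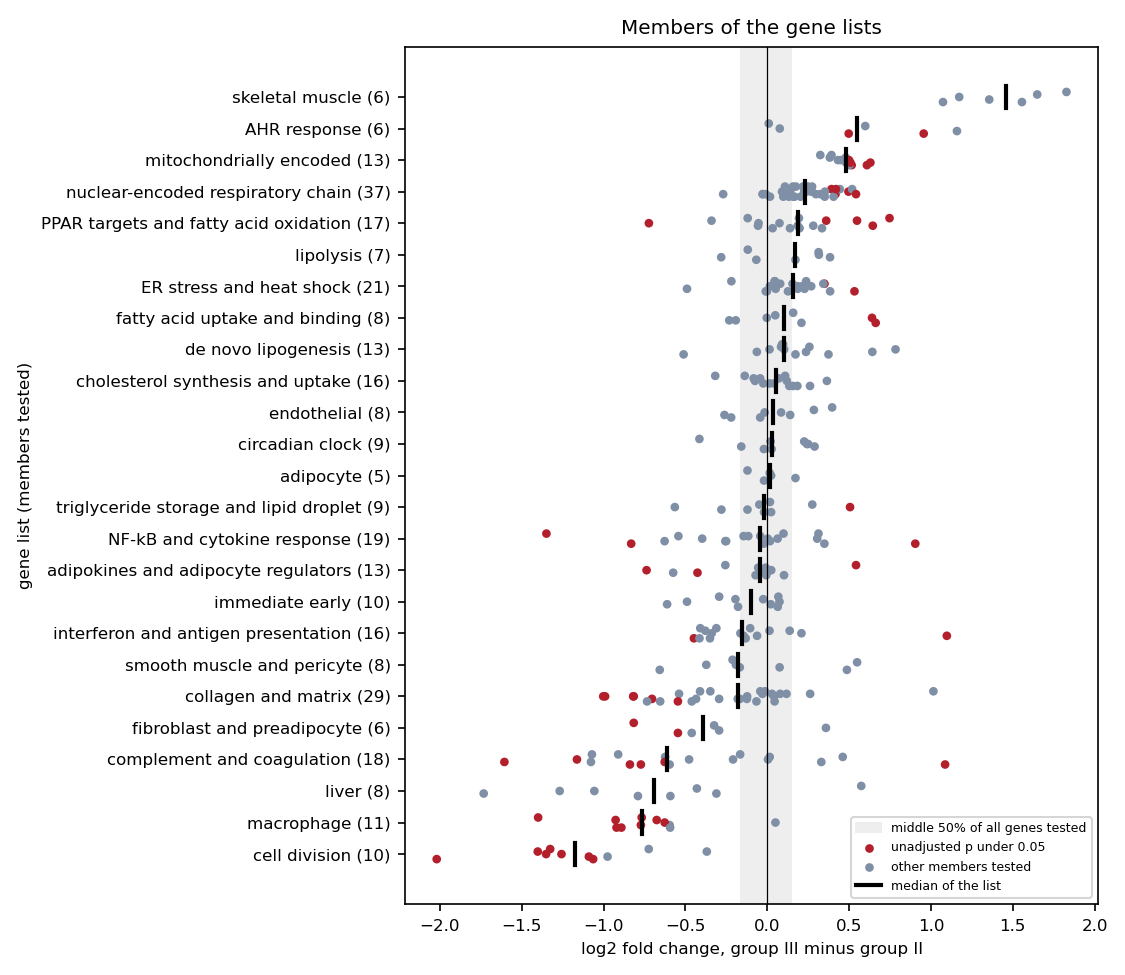
Log2 fold change of group III against group II (x axis) for every tested member of each list with at least 5 tested members (rows, number in brackets), red where the unadjusted edgeR p was under 0.05. Black bars mark the list medians and the grey band the middle 50% of all genes tested. Medians run from -1.17 for cell division and -0.77 for macrophage markers to 0.48 for mitochondrially encoded genes, 0.55 for the aryl hydrocarbon receptor list and 1.46 for muscle, whose members have no p under 0.05.

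The study lists 13 genes for group III against group I, of which 12 were tested here between groups II and III. That list was chosen on these samples and shares the pigs of group III, so it is no independent evidence. Of the 12, 4 were higher and 4 lower with an unadjusted p under 0.05, where 2.8% of all genes were higher and 3.42% lower. TIPARP was a DEG by DESeq2, and the median log2 fold change of the 12 was -0.14. PIGY, a subunit that starts GPI anchor synthesis, averaged 54.6 ± 10.5 CPM in group II and 76.9 ± 28.1 CPM in group III (log2 fold change 0.50 ± 0.21, adjusted p = 0.764), SH3BP2, an adaptor of immune cells, 35.7 ± 17.8 CPM in group II and 18.0 ± 7.55 CPM in group III (-0.998 ± 0.36, 0.720) and HMMR, a hyaluronan receptor of dividing cells, 26.2 ± 15.3 CPM in group II and 12.999 ± 6.70 CPM in group III (-0.98 ± 0.47, 0.808). CLMN, calmin, and ALDOC, an aldolase, had log2 fold changes of -0.27 ± 0.20 and -0.02 ± 0.20, less than the spread between pigs. Females and males were in both groups, and the interaction of sex and fat gave 0 of 10410 genes by edgeR, with 349 genes under an unadjusted p of 0.05 where 520 would be 5%, and 1 gene, ENSSSCG00000026623, by DESeq2.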

How the data were processed

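Backfat RNA of 23 pigs was sequenced with a stranded total-RNA kit after ribosomal RNA depletion, and 11 libraries are compared here. Per the labels and the study's methods, the authors trimmed single-end reads, aligned them to the pig genome with TopHat and deposited one table of raw read counts per gene and pig, made with HTSeq. How the pair of sequencing runs in the design was merged is not given in the sources used here. The processing notes also name RSEM.

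The 5 summary rows of each table were removed, leaving 25322 gene identifiers. Symbols came from the reference table (11804) or from the study's tables alone (81), with 3 conflicts in the latter, and no coordinates are given because the annotation of the files was not at hand. Genes without a matched symbol were left out of the lists. All pairs of pigs within a group differed beyond sampling noise (25 pairs, smallest chi-square per degree of freedom 5.417), so each pig counted as 1 replicate, and intervals between pigs include technical spread.

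The main test was edgeR 4.0.16 (R 4.3.3): TMM scaling, filterByExpr by group, quasi-likelihood F test, Benjamini-Hochberg adjustment over 10410 genes. DEGs passed 0.05 after adjustment and a 1.3-fold difference. Printed CPM values are TMM-normalized over all 23 pigs, and SEs are the log2 fold change divided by the root of F. Exact two-sided permutation tests ran over all 462 regroupings, on log2(CPM + 0.5) for genes and list sums and on log2 of the summed gene counts. For the other measures of depth and composition they ran on the measure itself. DESeq2 1.42.0 (the study's tool), limma 3.58.1 with voom weights, other scaling and filters, covariates for sex, RNA quality and reads outside genes, and leaving out pigs were alternatives. The fits were tested on simulated data. Named genes were the 12 per direction with the smallest p-value and a symbol, the DEGs of either tool with a symbol and at most 2 without one per direction, members of the lists, and the genes the study lists for group III against group I with its qPCR genes, F3 and IL1RAP. The members and lists were chosen with earlier results of these data known. Some genes that the rule would name are not reported here.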

Additional observations from a re-analysis of the deposited data

Results flagged for a closer look

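In 17 of 248 sets of values (1 gene or list sum in 1 dietary group), a single pig lay apart from the others of its group beyond the 95% limit of Dixon's test, which chance alone passes in about 1 set in 20. In group II, USP53 was at 154 CPM in pig 22 and between 86.6 and 105 CPM in the others, and ZCCHC2 was at 159 CPM in pig 24 and between 85.8 and 102 CPM in the others. In group III, CD200R1 was at 3.21 CPM in pig 41 against 1.39 to 1.70 CPM, SRPX2 at 4.22 CPM in pig 48 against 6.81 to 7.87 CPM, CLMN at 26.0 CPM in pig 45 against 46.9 to 58.4 CPM, and the mitochondrial gene ND6 at 3659 CPM in pig 43 against 5376 to 6281 CPM.

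Pig 48 of group III had 1398 CPM of ACLY, against 103 to 212 CPM in the other 4, and pig 19 of group II was low for both identifiers of FASN, with 536 CPM against 1385 to 1825 CPM for ENSSSCG00000023044 and 1516 CPM against 3478 to 4663 CPM for ENSSSCG00000029944. The same pig 19 was high for MRC1, the mannose receptor of macrophages, with 194 CPM against 95.4 to 122 CPM. It was also high for cell division genes, namely TOP2A with 75.5 CPM against 12.7 to 23.2 CPM, KIF11 with 10.3 CPM against 2.02 to 3.47 CPM, CENPF with 97.4 CPM against 18.9 to 30.9 CPM, and MCM3 with 20.7 CPM against 3.06 to 5.78 CPM. Among list sums, mast cell markers were at 216 CPM in pig 24 of group II against 149 to 164 CPM, T and NK cell markers at 63.3 CPM in pig 48 of group III against 38.2 to 42.8 CPM, and nerve markers at 24.2 CPM in pig 46 of group III against 4.32 to 7.00 CPM.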

How the results depend on the processing

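The count of 0 DEGs was 29 with DESeq2, 25 with its default filtering (chosen after seeing the data), 4 with no low-count filter and 4 with at least 10 counts in every pig (CTCFL, PLAU, PPTC7 and USP53 in the latter), 1 with RNA quality as covariate (CD200R1), and 0 to 5 when 1 pig was left out. Without pig 24 of group II 5 genes passed, without pig 22 of group II 1 (USP53) and without pig 43 of group III 1 (ENSSSCG00000029881). It remained 0 with limma-voom, median-ratio size factors, sex or reads outside genes as covariate, all 23 pigs, and without pigs 19 and 21. The 647 genes with an unadjusted p under 0.05 became 1003 with no filter and 401 to 791 when 1 pig was left out, lowest without pig 45. The 61 genes whose groups did not overlap became 216 without pigs 19 and 21, a comparison of fewer pigs. The sex by fat interaction gave 1 gene with DESeq2 and 0 to 1 when 1 pig was left out (1 without pig 48). No paired analysis was possible because pigs of different groups share no replicate numbers.

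Over 103 genes and 2135 alternative values, 8 genes changed sign in some setting, none of them called by any tool run on all 11 pigs. With limma-voom, the log2 fold change was -0.23 for ACACA, -0.18 for ACLY, -0.0826 and -0.13 for FASN (ENSSSCG00000023044 and ENSSSCG00000029944), -0.00655 for SCD and 0.00582 for PLIN1. With sex as covariate, it was -0.0429 and -0.0581 for FASN. With reads outside genes as covariate, it was -0.18 for ACACA, -0.17 for ACLY, 0.00726 for ALDOC, -0.57 and -0.60 for FASN, -0.59 for ME1 and -0.39 for SCD. Without pigs 19 and 21, it was -0.0177 for ACACA, 0.0205 for ALDOC, and -0.12 and -0.10 for FASN. Leaving out 1 pig gave -0.33 to 0.21 for ACACA, -0.54 to 1.02 for ACLY, -0.11 to 0.11 for ALDOC, -0.38 to 0.24 and -0.43 to 0.26 for FASN, -0.27 to 0.86 for ME1, -0.12 to 0.0614 for PLIN1 and -0.35 to 0.62 for SCD. Of 567 alternative list medians, 5 moved by more than 1 SD between pigs of the list's mean log2 level: de novo lipogenesis to -0.44, cholesterol synthesis to -0.25 and PPAR targets to -0.08 with reads outside genes as covariate, complement and coagulation to -0.17 without pig 17, and skin markers to 0.73 with at least 10 counts in every pig. Counting smaller moves too, medians of 16 of the 27 lists changed sign in at least 1 alternative, among them muscle, liver and nuclear-encoded respiratory chain as given above. The cause was not tested. At 1 CPM a pig held 2.31 to 6.94 reads, which limits genes such as CCL2, CYP1A1 and BUB1B.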
